A study of Mus musculus with 6 samples.

Results

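The semaphorin, plexin, ephrin and related guidance genes were compared between lipid-droplet-rich (BODIPY-high) and lipid-droplet-low (BODIPY-low) microglia of the mouse hippocampus. The genes were taken by name: semaphorins of classes 3 to 7, plexins, neuropilins, Eph receptors, ephrins, Robo receptors, Slits and Unc5 receptors. The rule matched 52 of the 15912 genes in the deposited table. They were 4 secreted semaphorins, 13 membrane semaphorins, 11 semaphorin receptors, 8 ephrins, 9 Eph receptors, 4 Slit or Robo genes, 2 Unc5 receptors and Plxna4os1, a non-coding gene that the name rule also caught.

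All libraries came from male C57BL/6 mice, 3 months old, that had received lipopolysaccharide (LPS, an inflammatory molecule of bacterial envelopes) at 1 mg/kg into the peritoneum for 4 days. Tissue was taken 24 h after the last dose, and each sample pooled hippocampi from 2 mice. Live CD11b+ CD45lo cells, a gate in common use for microglia, were parted by the neutral lipid dye BODIPY into a high gate (3 libraries) and a low gate (3 libraries). Both gates carry the LPS treatment, and libraries of saline-treated mice were not analysed here. Libraries were made from about 10000 sorted cells with a kit that does not keep the strand of the transcript.

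Guidance proteins were first described as cues that attract or repel growing axons, and the same families steer the shape and contacts of immune, vascular and epithelial cells. Semaphorins act through plexins, and the secreted class 3 members mostly need a neuropilin as co-receptor. Ephrins on 1 cell bind Eph receptors on its neighbour, Slits bind Robo receptors, and Unc5 proteins are receptors for netrins. In immune cells, Sema4d and Sema4a are known as semaphorins of lymphocyte and myeloid cell contacts, and the plexins act on the cytoskeleton through small GTPases.

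Each library held 37633089 to 39220494 recovered reads in the high gate and 34899413 to 36518323 in the low gate. A list of 10 microglial markers (among them Tmem119, P2ry12 and Cx3cr1) was found with reads in full and made up 5.10 to 6.63% of normalized counts in BODIPY-high libraries and 6.31 to 7.16% in BODIPY-low libraries. Markers of other cells differed between the gates. The summed normalized counts of 10 choroid plexus markers were 40053, 52519 and 52334 in BODIPY-high libraries 1, 2 and 3, against 313, 479.5 and 2336 in BODIPY-low libraries 1, 2 and 3, and all 10 were called higher. Those of 12 border-associated macrophage markers were 23512, 31077 and 87856, against 3493, 2739 and 7992, and 9 of the 12 were called. Of 9 astrocyte markers tested, 5 were called higher, with a median log2 change of 2.49 over the 9. The sum of the list was 12889 to 14659 in BODIPY-high libraries and 10934 to 11913 in BODIPY-low libraries. Most of that sum was Slc1a3, which was not called (12437, 11041 and 9230 in BODIPY-high libraries, against 11034, 11683 and 10582 in BODIPY-low libraries). These sums stand beside the gene results that follow, and their part in those results was not tested. In bulk samples, fewer cells of a type and less RNA per cell cannot be told apart.

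Stretches upstream of transcription starts are shown before the values, because their genes passed a test in the comparison, Slit2 without and the others only with a replicate block. Plxnc1 and Sema4f were chosen after their values were seen. The 3 are the genes past a test that have 1 start in the RefSeq table of 250-base windows (GRCm38.p6), and each is written 5′ to 3′ on the strand of its gene. Slit2 lies on the plus strand (chr5:47982905-47983154), Plxnc1 on the minus strand (chr10:94944846-94945095) and Sema4f on the minus strand (chr6:82939770-82940019). Capitals mark TATAAA and GGGCGG on either strand.
Slit2: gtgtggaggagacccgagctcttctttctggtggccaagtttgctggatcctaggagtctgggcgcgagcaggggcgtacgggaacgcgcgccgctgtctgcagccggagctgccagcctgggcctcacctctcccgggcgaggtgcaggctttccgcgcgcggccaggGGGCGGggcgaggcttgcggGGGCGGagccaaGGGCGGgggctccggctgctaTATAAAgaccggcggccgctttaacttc
Plxnc1: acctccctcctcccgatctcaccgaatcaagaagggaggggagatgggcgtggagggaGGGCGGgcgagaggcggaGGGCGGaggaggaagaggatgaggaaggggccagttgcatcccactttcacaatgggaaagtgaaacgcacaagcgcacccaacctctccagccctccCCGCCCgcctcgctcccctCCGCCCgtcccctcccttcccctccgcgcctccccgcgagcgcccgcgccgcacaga
Sema4f: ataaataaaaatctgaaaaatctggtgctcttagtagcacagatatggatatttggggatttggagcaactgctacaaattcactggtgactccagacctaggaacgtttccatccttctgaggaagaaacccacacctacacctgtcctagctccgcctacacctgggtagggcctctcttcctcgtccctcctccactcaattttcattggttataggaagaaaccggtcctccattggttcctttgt
The Slit2 window held 1 TATAAA and 3 GGGCGG, the Plxnc1 window 4 GGGCGG and the Sema4f window neither. Of 57 windows of the 44 guidance genes in the table, 75.4% held GGGCGG, against 32.7% of all 32851 windows of the same length. TATAAA was found in 3.51% of the windows of guidance genes and in 12.4% of all windows. The other motifs searched on both strands, with none found in the windows printed, were GAGGAAGT (0 of 57 windows, 2.44% of all), TGANTCA (5.26% and 6.75%) and CAGCTG (14% and 13%). TGANTCA and CAGCTG read the same on both strands. These are letter matches in a window, and genes with several starts count once per start.

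A small set of guidance genes carried nearly all the reads of the family in both gates. The 52 genes together took 0.231 to 0.261% of all reads in BODIPY-high libraries and 0.216 to 0.254% in BODIPY-low libraries. The 5 genes with most normalized counts (Plxnb2, Sema4d, Nrp1, Sema4c and Plxna4) held 87.5 to 89.3% of the family's reads in BODIPY-high libraries and 89.4 to 90.6% in BODIPY-low libraries. Reads of 46 to 50 of the 52 genes were found in a BODIPY-high library and of 42 or 43 in a BODIPY-low library.

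Levels were set between genes as RPKM, reads scaled by the total of the library and by the length of the longest basic GENCODE transcript. Sema4d, a membrane semaphorin, had a level of 160.3 ± 4.84 RPKM in BODIPY-high libraries and 169 ± 14.8 in BODIPY-low libraries (SD, n = 3 per gate, as for all levels). Plxnb2, a plexin known to bind it, had 157 ± 14.3 RPKM in BODIPY-high libraries and 153 ± 13.8 in BODIPY-low libraries. The order of Sema4d and Plxnb2 did not stand out from their spread. The neuropilin Nrp1, a co-receptor of class 3 semaphorins and of vascular endothelial growth factor, came next with 86.2 ± 16.8 RPKM in BODIPY-high libraries and 68.1 ± 2.98 in BODIPY-low libraries. Below it came Sema4c (21.1 ± 1.81 RPKM in BODIPY-high libraries, 23.0 ± 6.41 in BODIPY-low libraries) and Sema4a (15.6 ± 5.44 and 11.3 ± 2.21), whose levels overlapped in BODIPY-high libraries. The highest ephrin was Efnb1, with 8.62 ± 0.596 RPKM in BODIPY-high libraries and 10.3 ± 1.63 in BODIPY-low libraries, and the highest Eph receptor was Ephb3, with a mean of 3.34 RPKM in BODIPY-high libraries and 3.53 in BODIPY-low libraries. Ligand and receptor genes of the semaphorin family were thus at the top, and every Slit, Robo and Unc5 gene had a mean under 1 RPKM in either gate (at most 0.867 ± 0.162, Unc5a in BODIPY-high libraries).

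**Figure D1:**
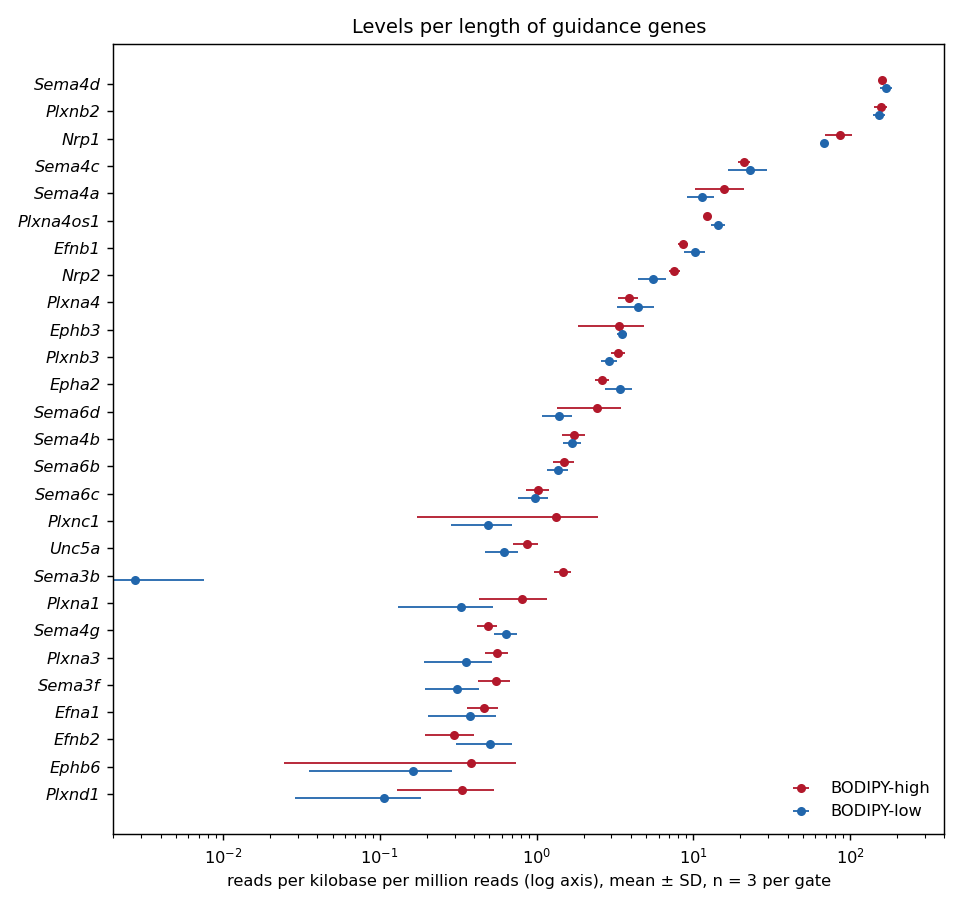
Levels of the guidance genes with a mean of at least 0.3 RPKM in either gate, in RPKM on a log axis. Red points are means of BODIPY-high libraries and blue points means of BODIPY-low libraries, with SD over 3 libraries, and bars that run below the axis are cut at its left edge. Sema4d, Plxnb2 and Nrp1 lie above all other members in both gates, and Sema3b is the gene whose gates lie farthest apart.

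Of the 52 genes, 37 reached 10 normalized counts in 3 or more libraries and were tested among 12767 genes by limma on log2(normalized count + 1). Sema3b and Slit2 were called higher in BODIPY-high microglia (adjusted p under 0.05), which is 2 of 37, or 5.41%, against 2.03% of all genes tested. None was called lower, against 0.0235% of all genes by limma, 0.00783% by edgeR and 0.251% by DESeq2. At an unadjusted p under 0.05, 8 of the 37 were higher (8.03% of all genes) and 1 was lower (2.27% of all genes). Both genes called had also passed the filter through the high gate only, so they had to differ. Of all genes tested 1.91% (244) passed in that way, and 51.6% of those were called higher. edgeR on recovered reads (background 1.74%) and DESeq2 (3.63%) called Sema3b and Slit2 as well and no other of the 37.

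The replicate numbers were taken as a pairing of the libraries from these same values, on grounds given with the processing. With the number as a block, 6 of 37 were called higher (16.2%, against 4.37% of all genes) and 0 lower (0.462%). The 6 include Sema3b and Slit2, which had to differ through the filter. The genes added by the block were the receptors Plxna1 and Plxnc1 and the membrane semaphorins Sema6d and Sema4f. The median log2 change of the 37 genes was 0.30, against -0.0043 for all genes tested, and 25 of 37 (67.6%) were positive, against 49.2%. That median depended on level. Among the 8 guidance genes with a mean of at least 1000 normalized counts it was -0.046 (all genes of that level -0.017) and none was called, against 0.472% of all genes of that level called higher. Among 12 with 100 to 1000 it was 0.14 (-0.025), and among 17 with under 100 it was 0.82 (0.26). Of the 12, 0 were called by limma, against 1.79% of all genes of that level called higher, and 9 were positive, against 45.7%. Of the 17, 2 were called higher (Sema3b and Slit2), against 5.50% of all genes of that level, and 12 were positive, against 64.1%. With the filter at 50 normalized counts the median over the guidance genes was 0.085, and without replicate 3 of both gates it was 0.16. The 15 genes outside the filter are described with their families.

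**Figure D2:**
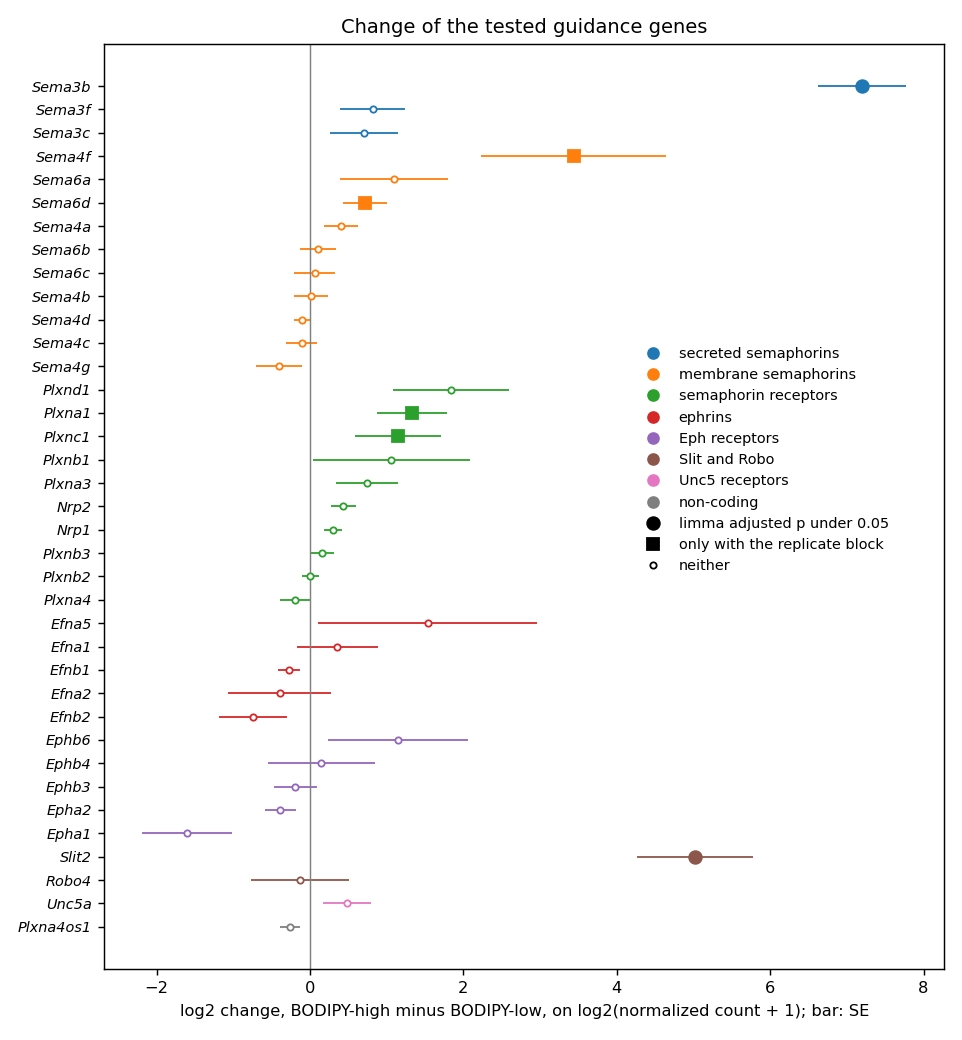
Log2 change of the 37 tested guidance genes, BODIPY-high minus BODIPY-low, with SE, coloured by role. Large filled circles passed limma (Sema3b at 7.20 and Slit2 at 5.02), filled squares passed only with the replicate block, and small open points passed neither.

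Secreted semaphorins held the gene of largest change. Sema3b (ENSMUSG00000057969.15, chromosome 9, 107597674 to 107609229, minus strand), which encodes a ligand of neuropilin and plexin complexes, had 174, 215 and 171 normalized counts in BODIPY-high libraries 1, 2 and 3, against 0, 0 and 1.05 in BODIPY-low libraries 1, 2 and 3. All 3 BODIPY-high libraries held it at like levels. It passed the filter through the high gate only, so the gates could not overlap and its p-values carry that selection. The log2 change was 7.20 ± 0.58 (SE, limma adjusted p = 0.00218), and it passed with any 1 library left out (adjusted p of 0.00076 to 0.0385). The reads were 576 against 1, a ratio of 528 with an exact 95% counting interval of 94.4 to 20883, which covers counting error only.

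Sema3f, a repulsive ligand that acts through neuropilin 2, lies 72270 bases from Sema3b on the same strand. It had 58.1, 87.7 and 61.6 normalized counts in BODIPY-high libraries, against 41.7, 54.7 and 24.2 in BODIPY-low libraries. Its gates did not overlap, and Sema3f did not pass (log2 change 0.82 ± 0.42, adjusted p = 0.589). Sema3c, a ligand known from heart development, had 53.1, 63.8 and 32.2 normalized counts in BODIPY-high libraries, against 32.9, 33.0 and 22.1 in BODIPY-low libraries, with overlap (log2 change 0.71 ± 0.44, adjusted p = 0.685). Sema3g was outside the filter, with means of 7.39 ± 3.82 and 5.24 ± 4.44 normalized counts in the high and the low gate. Reads of Sema3g were few in both gates.

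Membrane semaphorins had 10 of 13 genes tested, with a median log2 change of 0.085. None passed limma, edgeR or DESeq2. At an unadjusted p under 0.05, 2 were higher (8.03% of all genes) and 0 lower (2.27%), and 2 passed with the block (4.37%). Sema4d (chromosome 13, 51685529 to 51793747) had 27697, 27316 and 25027 normalized counts in BODIPY-high libraries, against 31113, 25787 and 29004 in BODIPY-low libraries. The gates overlapped, and the log2 change was -0.099 ± 0.10 (adjusted p = 0.846). Sema4c, another ligand of B-class plexins, had 3337, 2798 and 3009.9 normalized counts in BODIPY-high libraries, against 4129, 2302 and 3707 in BODIPY-low libraries (log2 change -0.11 ± 0.20, adjusted p = 0.921). Sema4a had 1499.5, 1514 and 2534 normalized counts in BODIPY-high libraries, against 1111, 1625 and 1374 in BODIPY-low libraries, with BODIPY-high library 3 above the rest (log2 change 0.40 ± 0.22, adjusted p = 0.615).

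Sema6d (chromosome 2, 124089969 to 124667770), a ligand of Plxna1 with a role in myeloid and cardiac cells, had 435, 438 and 847 normalized counts in BODIPY-high libraries, against 342, 262 and 403 in BODIPY-low libraries. The gates did not overlap, and library 3 was the highest of each gate. The log2 change was 0.72 ± 0.29 (adjusted p = 0.413; 0.049 with the replicate block). Sema4f (chromosome 6, 82911885 to 82939769), a semaphorin described in neurons and oligodendrocyte precursors, had 25.0, 14.0 and 60.7 normalized counts in BODIPY-high libraries, against 0, 0 and 17.9 in BODIPY-low libraries. BODIPY-low library 3 lay above BODIPY-high library 2, so the gates overlapped. The log2 change was 3.44 ± 1.21 (adjusted p = 0.32; 0.049 with the block), and without BODIPY-low library 3 Sema4f passed limma (adjusted p = 0.0395). That library held all its BODIPY-low reads, so leaving it out set the low gate to 0. The other tested genes, Sema4b, Sema4g, Sema6a, Sema6b and Sema6c, had log2 changes of -0.40 to 1.10 and adjusted p of at least 0.702.

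The low-level genes Sema5a, Sema5b and Sema7a were outside the filter. Sema5a and Sema5b had 14 and 15 reads over the BODIPY-high libraries, against 0 and 0 over the BODIPY-low libraries. The Sema5b reads were all in BODIPY-high library 3. Sema7a, a membrane-anchored ligand of Plxnc1, had means of 7.42 ± 1.23 and 3.96 ± 3.85 normalized counts in the high and the low gate.

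Semaphorin receptors had 10 of 11 genes tested, of which 9 had a positive log2 change (median 0.59; 49.2% of all genes were positive). None passed limma, edgeR or DESeq2. At an unadjusted p under 0.05, 4 were higher (8.03% of all genes) and 0 lower (2.27%), and 2 passed with the block (4.37%). Plxnb2 (chromosome 15, 89155549 to 89180788), the most abundant guidance gene by counts, had 39935, 34197 and 39078 normalized counts in BODIPY-high libraries, against 40926, 33737 and 38079 in BODIPY-low libraries. The values of both gates covered the same range, and the log2 change was 0.0072 ± 0.11 (adjusted p = 0.992), with a sign that turned under TMM scaling (-0.013) and in edgeR (-0.0057). Nrp1 (chromosome 8, 128358604 to 128503363) had 9756, 11079 and 13578 normalized counts in BODIPY-high libraries, against 8966, 9212 and 9514 in BODIPY-low libraries. No overlap was seen between the gates, yet Nrp1 did not pass (log2 change 0.30 ± 0.12, adjusted p = 0.425; 0.0858 with the block). Nrp2, the other neuropilin, had 1876, 2079.9 and 1719 normalized counts in BODIPY-high libraries, against 1766, 1195 and 1279 in BODIPY-low libraries, with overlap (log2 change 0.44 ± 0.16, adjusted p = 0.349).

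Plxna1 (chromosome 6, 89316314 to 89362620), a receptor of class 3 and class 6 semaphorins, had 195, 205 and 401 normalized counts in BODIPY-high libraries, against 97.6, 54.7 and 185 in BODIPY-low libraries. The gates did not overlap, and library 3 was the highest of each gate. The log2 change was 1.33 ± 0.46 (adjusted p = 0.31; 0.0166 with the block), and within the numbers 1, 2 and 3 the log2 difference of the high from the low library was 0.99, 1.89 and 1.11. Plxnc1 (chromosome 10, 94790866 to 94944835), the receptor of Sema7a, had 149, 215 and 698 normalized counts in BODIPY-high libraries, against 76.8, 140.3 and 188 in BODIPY-low libraries. BODIPY-high library 3 held more than 3 times the value of any other library, and the gates overlapped. The log2 change was 1.15 ± 0.56 (adjusted p = 0.546; 0.0401 with the block), and the ratio of the means was 2.62, or 1.35 without BODIPY-high library 3.

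The other receptors did not pass with or without the block. Plxnd1, known as a receptor of vascular patterning, had 66.1, 46.9 and 141 normalized counts in BODIPY-high libraries, against 5.49, 33.0 and 44.2 in BODIPY-low libraries, with no overlap (log2 change 1.84 ± 0.76, adjusted p = 0.439; 0.97 without BODIPY-low library 1). Plxna3, Plxna4, Plxnb1 and Plxnb3 had log2 changes of -0.20 to 1.06 and adjusted p of at least 0.608. That of Plxnb1, 1.06, was 1.85 without BODIPY-high library 2, and 0.22 and 1.96 with libraries 3 and 1 of the low gate left out in turn. Plxna2 was outside the filter, with at most 13.4 normalized counts in any library.

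Plxna4os1 (chromosome 6, 32511073 to 32515576) lies within the span of Plxna4 on the opposite strand and shares none of its exons. It had 891, 879 and 911 normalized counts in BODIPY-high libraries, against 1035, 1204 and 987 in BODIPY-low libraries, so the gates did not overlap and BODIPY-low was the higher (log2 change -0.26 ± 0.13, adjusted p = 0.546). The kit does not mark strand, so its reads and unspliced reads of Plxna4 cannot be told apart. Plxna4 itself had 2197, 1691 and 1688 normalized counts in BODIPY-high libraries, against 2849, 1749 and 1888 in BODIPY-low libraries, with overlap.

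Ephrins, the membrane-bound ligands of Eph receptors, had 5 of 8 genes tested and none past limma, edgeR, DESeq2 or the block, and none had an unadjusted p under 0.05 (median log2 change -0.27). Efnb1 (chromosome X, 99136130 to 99148991), a transmembrane ephrin, had 1098, 970.2 and 1058 normalized counts in BODIPY-high libraries, against 1437, 1036 and 1325 in BODIPY-low libraries. It was lower in the high library of all 3 numbers, with overlap between the gates (log2 change -0.27 ± 0.15, adjusted p = 0.613). Efnb2, known as a marker of arterial endothelium, had 34.0, 70.8 and 54.3 normalized counts in BODIPY-high libraries, against 52.7, 99.0 and 120.0 in BODIPY-low libraries (log2 change -0.74 ± 0.44, adjusted p = 0.66).

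The lipid-anchored ephrins were scarce. Efna5 had 16.0, 13 and 1.84 normalized counts in BODIPY-high libraries, against 0, 26.8 and 0 in BODIPY-low libraries, a pattern with no order between the gates (log2 change 1.53 ± 1.43, adjusted p = 0.825). Its change was 0.73 without BODIPY-low library 1 or 3, 2.35 without BODIPY-high library 3 and 3.13 without BODIPY-low library 2. Efna1 and Efna2 had adjusted p of at least 0.902, and Efna3 and Efna4 were outside the filter. So was the transmembrane ephrin Efnb3, which had 0, 8.97 and 69.0 normalized counts in BODIPY-high libraries, against 0, 4.13 and 0 in BODIPY-low libraries, with nearly all of it in BODIPY-high library 3.

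Eph receptors, a family of receptor tyrosine kinases, had 5 of 9 genes tested and none past limma, edgeR, DESeq2 or the block. At an unadjusted p under 0.05, 0 were higher (8.03% of all genes) and 1 was lower (2.27%), and the median log2 change was -0.19. That gene was Epha1, a locus known from human genetic studies of Alzheimer's disease, with 6.01, 11.0 and 18.4 normalized counts in BODIPY-high libraries, against 38.4, 46.4 and 23.2 in BODIPY-low libraries. All BODIPY-high libraries lay below all BODIPY-low libraries (log2 change -1.60 ± 0.58, adjusted p = 0.348; 0.193 with the block). Epha2, a receptor of lipid-anchored ephrins, had 396, 344 and 402 normalized counts in BODIPY-high libraries, against 527, 592 and 392 in BODIPY-low libraries, with overlap (log2 change -0.38 ± 0.20, adjusted p = 0.579). Ephb3, a receptor of transmembrane ephrins, had 907, 461 and 406 normalized counts in BODIPY-high libraries, against 690.1, 589 and 619 in BODIPY-low libraries. BODIPY-high library 1 alone lay above the low gate (log2 change -0.19 ± 0.28, adjusted p = 0.902), and without BODIPY-high library 3 the change was 0.034.

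Ephb6, a member without kinase activity, had 14.0, 36.9 and 106 normalized counts in BODIPY-high libraries, against 4.39, 40.2 and 24.2 in BODIPY-low libraries (log2 change 1.15 ± 0.92, adjusted p = 0.783). Its change was 0.43 without BODIPY-high library 3, 0.29 without BODIPY-low library 1, 1.84 without BODIPY-high library 1 and 1.75 without BODIPY-low library 2. Ephb4 did not pass (log2 change 0.15, adjusted p = 0.977; 0.79 without BODIPY-high library 3). Epha4, Epha5, Ephb1 and Ephb2 were outside the filter, with at most 28.5 normalized counts in any library (Ephb1 in BODIPY-high library 3).

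Among Slit and Robo genes, Slit2 was called higher. Slit2 (ENSMUSG00000031558.15, chromosome 5, 47983138 to 48307733), a secreted repellent whose upstream window is printed above, had 45.0, 25.9 and 26.7 normalized counts in BODIPY-high libraries, against 0, 0 and 0 in BODIPY-low libraries. Each BODIPY-high library held it and no BODIPY-low library had a read. It too passed the filter through the high gate only, so its p-values carry that selection. The log2 change was 5.02 ± 0.76 (limma adjusted p = 0.0153). The 100 reads of the high gate were 30.5-fold the 3 reads over the low gate that a count of 0 allows. The lower limit of the exact 95% counting interval of the ratio was 24.4. Without BODIPY-high library 1 the fold over the floor was 24.8. It was 20.1 to 20.7 without 1 BODIPY-low library, where the floor stayed at 3 reads over fewer libraries. Slit2 did not pass without BODIPY-high library 1, 2 or 3 (adjusted p = 0.0642, 0.105 and 0.0747).

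The Robo genes were near or below the filter. Robo4, known from endothelium, had 23.0, 29.9 and 7.36 normalized counts in BODIPY-high libraries, against 25.2, 18.6 and 14.7 in BODIPY-low libraries (log2 change -0.13 ± 0.64, adjusted p = 0.979). Its log2 change was 0.032 in edgeR and 0.039 in DESeq2. Robo1 had 1 read over the BODIPY-high libraries and 6 over the BODIPY-low libraries. Slit1 had 22 reads over the BODIPY-high libraries and 0 over the BODIPY-low libraries and was outside the filter, with its highest value of 16.6 normalized counts in BODIPY-high library 3.

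Of the netrin receptors, Unc5a had 119, 114 and 152 normalized counts in BODIPY-high libraries, against 108, 105 and 66.3 in BODIPY-low libraries. No library of either gate overlapped the other gate, and Unc5a did not pass (log2 change 0.48 ± 0.31, adjusted p = 0.704). Unc5b was outside the filter, with 5.01, 3.99 and 9.20 normalized counts in BODIPY-high libraries, against 3.29, 0 and 8.42 in BODIPY-low libraries.

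Across the 37 tested genes, 8 had all BODIPY-high libraries above all BODIPY-low libraries (21.6%, against 10.4% of all genes tested) and 2 had the opposite (5.95% of all genes). The 8 were Sema3b, Slit2, Sema3f, Sema6d, Nrp1, Plxna1, Plxnd1 and Unc5a, of which Sema3b and Slit2 had to be among them through the filter.

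**Figure D3:**
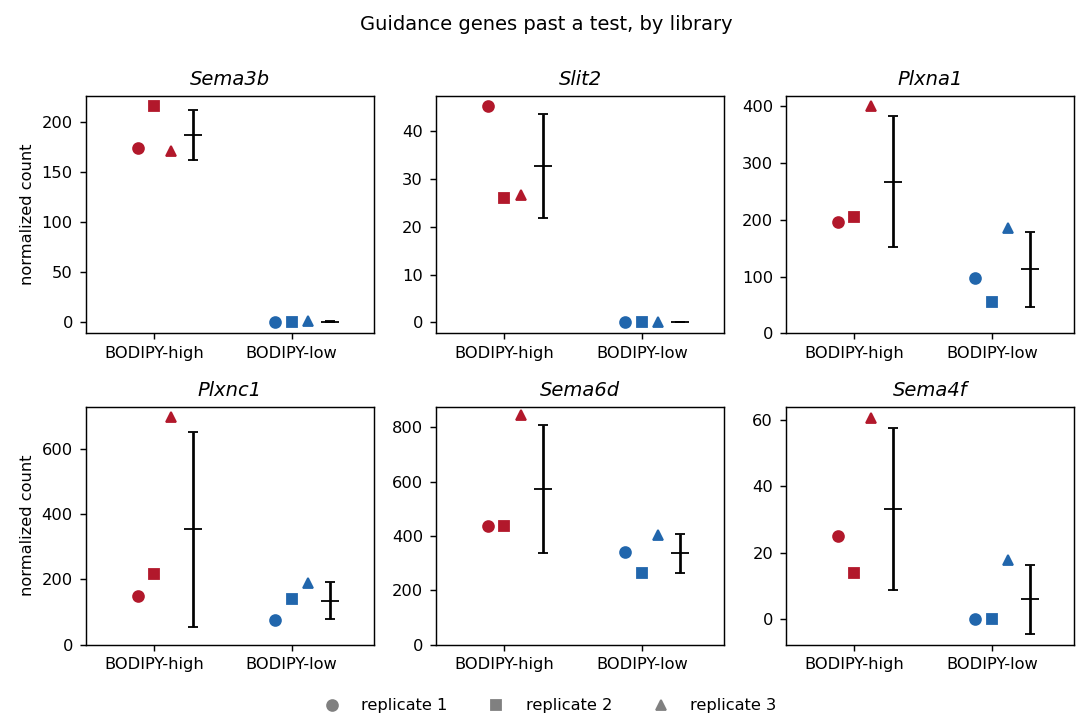
Normalized counts of the 6 guidance genes past limma with or without the replicate block, by gate, with symbols for the replicate number and a black bar for the mean ± SD of 3 libraries. Sema3b and Slit2 are at or near 0 in all BODIPY-low libraries, and for Plxna1, Plxnc1, Sema6d and Sema4f the triangle of replicate 3 is the highest of each gate.

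The 6 genes showed 2 arrangements over the libraries, which are given beside the marker sums. Sema3b and Slit2 were spread over all BODIPY-high libraries: library 3 held 0.878 and 0.752 times the mean of libraries 1 and 2. For the choroid plexus marker sum this value was 1.13. Of the 6-library total, Slit2 had 46.1, 26.6 and 27.3% in BODIPY-high libraries 1, 2 and 3, with library 1 the highest. The choroid plexus sum had 27.1, 35.5 and 35.4%, with library 1 the lowest of that gate. In the low gate, library 3 held 5.90 times the mean of libraries 1 and 2 for that sum. For Igfbp2, the only called gene of 4 tested on a fibroblast list of 10, the counts were 553, 794 and 863 in BODIPY-high libraries, against 6.58, 7.22 and 32.6 in BODIPY-low libraries. The 8 genes of that list in the table summed to 1169 to 1411 normalized counts in BODIPY-high libraries and 459 to 659 in BODIPY-low libraries. Without Igfbp2 the sums overlapped, at 510 to 617 in BODIPY-high libraries and 452 to 645 in BODIPY-low libraries. Most of these sums was Col6a3, with 555, 457 and 375 in BODIPY-high libraries, against 632, 407 and 588 in BODIPY-low libraries. Their overlap thus says little of the other genes on the list. Of the list, 2 genes were at 0 in all BODIPY-low libraries, both outside the filter. Col1a1 had 0, 0 and 9.20 normalized counts and Col3a1 2.00, 0 and 10.1 in BODIPY-high libraries. Slc6a13 and Dcn, also outside the filter, had overlap between the gates. For Slc6a13 the counts were 0, 3.99 and 24.8 in BODIPY-high libraries, against 1.10, 31.97 and 9.48 in BODIPY-low libraries. Ogn and Col1a2 had positive log2 changes and were not called (3.17 and 1.97, adjusted p = 0.202 and 0.53).

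Plxna1, Plxnc1, Sema6d and Sema4f were highest in library 3 of each gate. BODIPY-high library 3 held 2.00, 3.83, 1.94 and 3.11 times the mean of BODIPY-high libraries 1 and 2 for these genes. The border-associated macrophage sum had 3.22 times and the sum of 7 oligodendrocyte precursor markers 6.21 times, with 89.1, 89.7 and 555 normalized counts in BODIPY-high libraries, against 32.9, 4.13 and 27.4 in BODIPY-low libraries. Of those 7 markers 2 were called higher. The defining marker Pdgfra was at 0 in all BODIPY-low libraries and did not share the arrangement, with 29.0, 14.96 and 23.9 normalized counts in BODIPY-high libraries (1.09 times), whereas Gpr17 had 0, 0 and 212 and Olig1 27.0, 44.9 and 127. Library 3 also stood above libraries 1 and 2 of the high gate in the sums of T and NK cell (5.2 times), neutrophil (2.40), monocyte (2.11) and oligodendrocyte markers (1.76), for which the values in the low gate were 4.09, 1.39, 1.40 and 1.01. Most of the monocyte sum was Chil3, with 8191, 19002.5 and 29263 normalized counts in BODIPY-high libraries. The other tested monocyte markers ran from 1.00 times (Ms4a4c) to 4.10 times (Plac8) in the high gate, with Ccr2 at 1.26. The T and NK cell sum was nearly all Cd4, with 287, 278 and 1473 normalized counts in BODIPY-high libraries. Cd3d had at most 6.44 in any library, and Cd3e, Cd3g, Cd8a and Trac were not in the deposited table, so that sum does not show lymphocytes. In the low gate, library 3 held 2.43, 1.74 and 1.34 times the mean of libraries 1 and 2 for Plxna1, Plxnc1 and Sema6d, and 2.56 times for the border-associated macrophage sum. The microglial sum had 0.767 times in the high gate and 0.911 times in the low gate. The part of these cells in the gene values was not tested.

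With replicate 3 of both gates left out, the block called Sema3b and Slit2 and none of the other 4 genes (adjusted p = 0.0781 for Plxna1, 0.333 for Plxnc1, 0.332 for Sema6d and 0.148 for Sema4f). Without replicate 2, Plxna1, Sema6d and Sema4f were lost (0.0705, 0.13 and 0.128), and without replicate 1 only Sema4f was lost (0.0848), of these 6 genes. The ratio of the means of Sema4f was 5.57, against 3.27 without BODIPY-high library 3 and 3.71 without BODIPY-low library 1 or 2.

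**Figure D4:**
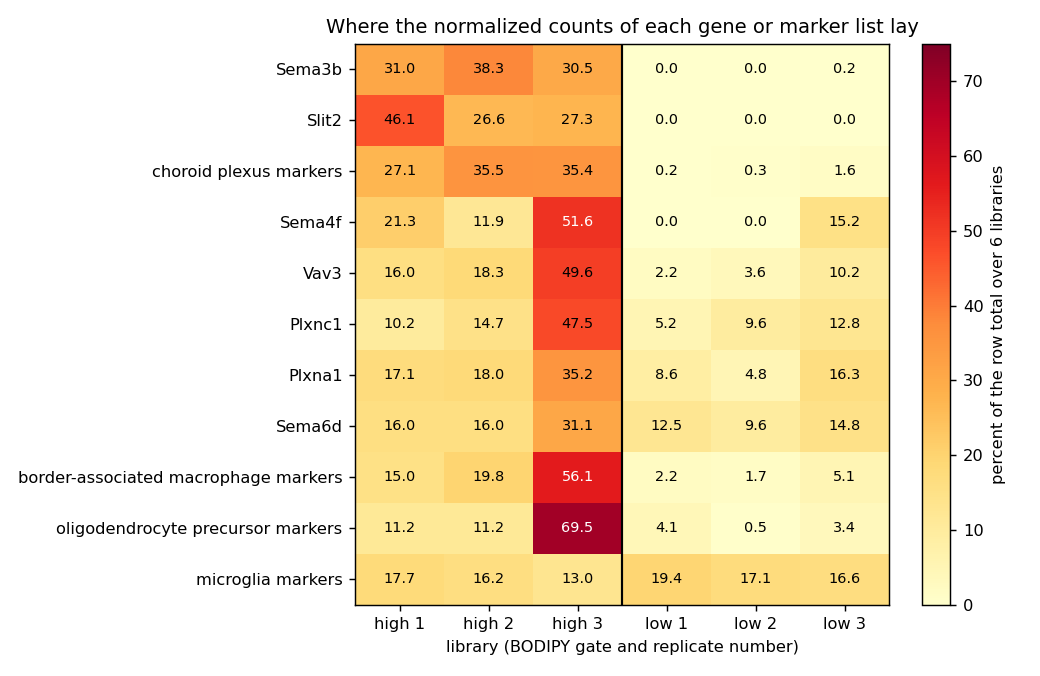
Percent of the summed normalized counts of each gene or marker list that lay in each of the 6 libraries, with BODIPY-high libraries left of BODIPY-low libraries. BODIPY-high library 3 held 47.5% of Plxnc1 and 56.1% of the border-associated macrophage markers, while Sema3b was split as 31.0, 38.3 and 30.5% over BODIPY-high libraries 1, 2 and 3.

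Partners outside the name rule were read from a list of 69 netrins, adaptors, GTPase regulators, kinases and co-receptors, of which 66 were in the table and 54 were tested. None was called higher or lower by limma and none by edgeR. At an unadjusted p under 0.05, 3 were higher (5.56%, against 8.03% of all genes) and 3 lower (5.56%, against 2.27%), and DESeq2 called 1 higher (1.85%, against 3.63%). The median log2 change was 0.028, with 30 of 54 positive (55.6%, against 49.2% of all genes). The gene called by DESeq2, and by limma with the block, was Vav3, an exchange factor for small GTPases that acts downstream of Eph and immune receptors. Vav3 had 118, 136 and 367 normalized counts in BODIPY-high libraries, against 16.5, 26.8 and 75.8 in BODIPY-low libraries. The gates did not overlap, and library 3 was again the highest of each gate (log2 change 2.44 ± 0.62, adjusted p = 0.11; 0.00171 with the block). The ratio of its means was 5.21, and 3.20 without BODIPY-high library 3 and 9.56 without BODIPY-low library 3, where it passed limma (adjusted p = 0.0361).

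The partners next in order of p did not pass. The cofilin kinase gene Limk1 had 1091, 1089 and 1285 normalized counts in BODIPY-high libraries, against 1479, 1683 and 1353 in BODIPY-low libraries (log2 change -0.38 ± 0.13, adjusted p = 0.3). The adaptor gene Nck1 also had all BODIPY-high libraries below all BODIPY-low libraries (log2 change -0.31 ± 0.11, adjusted p = 0.321). The adaptor gene Nck2 (1.72 ± 0.64) and the heparan sulfate proteoglycan gene Sdc3 (0.28 ± 0.11) had all BODIPY-high libraries above all BODIPY-low libraries, with an adjusted p of 0.361 each.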

How the data were processed

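RNA-seq libraries of 3 BODIPY-high and 3 BODIPY-low samples were compared. The authors ran FastQC 0.11.4 and STAR 2.5.3a (alignment to mm10 and gene counts) and then DESeq2, per the series' design text. The submitters' processing notes list mm9 as well as mm10. Not given in the sources used here were the annotation and the strand column. In unit, the deposited signal is a normalized count, each gene's reads divided by a size factor of its library by the authors. Values were whole multiples of 1 step per library within 0.05 of a read (100% of values), and the steps gave whole reads, used for edgeR and DESeq2. A count of 0 allows 3 reads; both this floor and the intervals allow for counting error alone.

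The test was limma-trend 3.58.1 (R 4.3.3) on log2(normalized count + 1), two-sided, with gate as the only term, over 12767 genes with at least 10 normalized counts in at least 3 libraries, with Benjamini-Hochberg adjustment over all of them and a threshold of 0.05. Fold changes on this scale understate those of low genes. Every adjusted p is from limma unless edgeR (4.0.16) or DESeq2 (1.42.0) is named. With the mean of each gate taken off, same-numbered libraries deviated together (r = 0.354, 0.244 and 0.363 across genes for numbers 1, 2 and 3). Other combinations were below 0, which adds no separate evidence, because the deviations within a gate sum to 0 for each gene. On the same-number values the number was taken as a pairing and fitted as a block. The labels do not say whether samples of a gate are separate pools, so the p-values rest on a spread between samples that may be technical.

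Values in every library are given for members called by any fit, the 2 of highest mean and the 3 of smallest p in each role; some others were added after their values were seen, as were 4 alternatives. Members, gene lists and tests were chosen with earlier results of these data known. Gene models are GENCODE M21 (GRCm38), and upstream windows are from RefSeq. Tests were checked on simulated counts. A partner gene that the rule names is not reported here.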

Additional observations from a re-analysis of the deposited data

How the results depend on the processing

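The number of guidance genes called higher, 2, was 6 with the replicate block and 1 among genes with at least 50 normalized counts in at least 3 libraries, where Slit2 was not tested. It was 1 to 3 with 1 library left out, 1 without replicate 3 of both gates, and with the block 7, 4 and 2 without replicate 1, 2 and 3. None was called lower under any of the 19 alternatives. Partners called higher, 0, were 1 with the block and in DESeq2, 0 to 1 with 1 library left out, and with the block 2, 1 and 1 without replicate 1, 2 and 3.

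For all genes, 259 were higher and 3 lower. The higher count was 131 with the filter at 50, 464 in DESeq2, 558 with the block, 15 (without BODIPY-high library 2) to 271 with 1 library left out, 117 without replicate 3 and 702, 346 and 279 with the block without replicate 1, 2 and 3. The lower count was 1 with the filter at 50, with scaling by totals and in edgeR, 32 in DESeq2, 59 with the block, 0 to 2 with 1 library left out, 0 without replicate 3 and 80, 33 and 21 with the block without replicate 1, 2 and 3. The median log2 change of guidance genes, 0.30, was 0.085 with the filter at 50, 0.21 to 0.37 with 1 library left out and 0.16 without replicate 3 of both gates, with or without the block. Within numbers 1, 2 and 3 it was 0.12, 0.083 and 0.41.

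The sign turned for 4 uncalled genes. Plxnb2 had -0.013 under TMM scaling, -0.0057 in edgeR, -0.068 to 0.077 with 1 library left out and -0.0079 without replicate 3, with or without the block. Ephb3 had -0.54 to 0.034 with 1 library left out and 0.020 without replicate 3, with or without the block. Robo4 had 0.032 in edgeR, 0.039 in DESeq2, -0.50 to 0.44 with 1 library left out and 0.27 without replicate 3, with or without the block. Sema4c had -0.36 to 0.058 with 1 library left out. The causes were not tested. Of 468 values of named genes under alternatives, 429 kept direction and side of the threshold. Apart from the calls given above and in the report, the block changed no call of a named gene with all libraries. Genes near the floor of 3 reads are limited by depth.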
